A study of Mus musculus with 12 samples.

Results

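Agtr1a, Sstr3, Tesc, Nrxn3 and Rgs2 are 5 signalling genes whose array signal, on at least 1 probe set each, was much lower in C4-HD mouse mammary carcinomas after 48 h of mifepristone. They were picked from 18193 measured genes because their values fell far and progressively between 6 h and 48 h of the drug, so those falls are described here and not tested. The members are read by 14 of the 34945 probe sets that the platform annotation gives to a single gene symbol: 1 for Agtr1a, 2 each for Sstr3 and Tesc, 5 for Nrxn3 and 4 for Rgs2. Read with the most variable probe set of each gene, the group means of Agtr1a, Sstr3 and Tesc went down at every step from MPA to 48 h, although arrays of Sstr3 at 12 h and 24 h overlapped. The other probe set of Sstr3 and that of Tesc stayed near 0 throughout, so "steadily lost" holds for only 1 of the 2 probe sets of each. Rgs2 was lowest at 24 h, and Nrxn3 still overlapped its MPA values at 12 h.

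The genes stand at different points of signalling from the cell surface inwards. Agtr1a encodes the type 1 receptor for angiotensin II, which acts chiefly through Gq proteins, and Sstr3 encodes a somatostatin receptor that acts through inhibitory G proteins and in neurons sits in the primary cilium. Rgs2 is a regulator of G protein signalling that speeds the switching off of G proteins, with a preference for Gq. Tescalcin, the Tesc product, is a calcium-binding protein related to calcineurin B, and neurexin 3, from Nrxn3, is a cell adhesion protein of nerve terminals that binds neuroligins.

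The measurements come from 12 Affymetrix mouse arrays of C4-HD, a mammary carcinoma carried in BALB/c mice under the progestin MPA, in 6 groups of 2 arrays. The MFP 6 h, 12 h, 24 h and 48 h groups are tumours that reached 50 mm2 under MPA, lost the MPA pellet and received mifepristone (MFP), a progesterone receptor antagonist, under the skin at 10 mg/kg/day, with the time taken from the label. The no MPA group is labelled as tumours 48 h on saline without MPA, although the treatment protocol describes saline tumours as still having MPA, and the MPA group kept the progestin. A contrast of MFP with MPA thus holds both the loss of the progestin and the arrival of the antagonist. The series text lists 12, 24 and 48 h, so the 6 h group rests on the sample labels alone. It calls the arrays of a condition independent replicates without saying whether each was 1 animal, so the p-values rest on array-to-array spread, which may be technical. Age and sex of the mice and the clonality of the tumour line are not given in the sources used here. All RNA was taken from fixed, paraffin-embedded tumours. Every value below is a log2 ratio whose denominator is the average linear MPA signal, so a gene's level above background is not known, levels cannot be set against each other between genes, and in whole tumours fewer cells of a type cannot be told apart from less RNA per cell. Differences are between group means on the log2 scale, with the limma standard error after ±.

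Promoter windows, from RefSeq on GRCm38.p6, are shown because the members were chosen for falls under a steroid receptor antagonist. That they moved together follows at least in part from this choice, and whether they share a regulator was not tested. Of the 5 members 4 have such windows, 7 in all, each covering the 250 bases before a gene start. The window shown for Sstr3 and Nrxn3 is the one with a match to the single arm of the steroid response element, and capitals mark that match, which in Nrxn3 reads AGAACA because it lies on the opposite strand. Tesc and Rgs2 have 1 window each, without capitals because no searched motif matched.

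Sstr3, chr15:78541407-78541656, minus strand: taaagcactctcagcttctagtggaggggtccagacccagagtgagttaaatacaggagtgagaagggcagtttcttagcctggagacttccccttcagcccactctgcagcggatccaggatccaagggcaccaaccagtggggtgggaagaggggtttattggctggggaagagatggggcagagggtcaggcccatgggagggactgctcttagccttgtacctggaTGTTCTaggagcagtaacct
Tesc, chr5:118027493-118027742, plus strand: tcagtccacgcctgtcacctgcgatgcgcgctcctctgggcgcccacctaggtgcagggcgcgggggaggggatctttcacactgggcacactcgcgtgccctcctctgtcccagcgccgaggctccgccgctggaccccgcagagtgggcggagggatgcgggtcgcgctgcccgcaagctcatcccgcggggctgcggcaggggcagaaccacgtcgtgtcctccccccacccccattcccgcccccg
Nrxn3, chr12:88794254-88794503, plus strand: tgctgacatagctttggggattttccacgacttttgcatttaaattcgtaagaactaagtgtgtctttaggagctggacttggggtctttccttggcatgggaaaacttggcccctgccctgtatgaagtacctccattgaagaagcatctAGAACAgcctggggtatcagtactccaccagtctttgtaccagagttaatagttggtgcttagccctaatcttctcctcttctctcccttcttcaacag
Rgs2, chr1:144004150-144004399, minus strand: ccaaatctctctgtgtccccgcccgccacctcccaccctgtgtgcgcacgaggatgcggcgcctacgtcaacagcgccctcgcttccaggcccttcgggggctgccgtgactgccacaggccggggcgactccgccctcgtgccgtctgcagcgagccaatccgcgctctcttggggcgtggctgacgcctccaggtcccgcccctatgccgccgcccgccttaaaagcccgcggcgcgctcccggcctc

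The full steroid response element, AGAACA and TGTTCT with any 3 bases between them, was searched on both strands and was in 0 of the 7 member windows, as in all but 3 of 32851 windows of all genes. Its single arm, TGTTCT, which also lies inside the full element, was in 2 of the 7 member windows, at bases -20 to -15 before a start of Sstr3 and, on the opposite strand, at -99 to -94 before a start of Nrxn3. That arm was in 16.1% of all windows. The cyclic AMP response element TGACGTCA was in 0 member windows, against 1.55% of all windows. The AP-1 motif TGANTCA was in 1 member window, another start of Nrxn3 at -231 to -225, against 6.75% of all windows. No searched motif was in windows of all 4 members, and a missing match says nothing about the factor. The Tesc and Rgs2 windows were 73.2% and 72.4% G and C, while those shown for Sstr3 and Nrxn3 were 55.6% and 45.6%, against a median of 52.4% over all windows.

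Both receptor genes were already lower at 6 h. Agtr1a measured 0.42 and -0.60 on the MPA arrays, -0.76 and -1.0 after 6 h of MFP, -2.00 and -1.87 after 12 h, -3.04 and -3.22 after 24 h and -3.90 and -3.40 after 48 h. Each MFP time lay wholly below the one before it, and the 6 h arrays lay below both MPA arrays. The 6 h mean was 0.79 below the MPA mean, and since the MPA arrays lay far apart the size of this early difference is uncertain. At 48 h the gene was 11.8-fold lower than in MPA (-3.56 ± 0.33), the fall of rank 2 among all genes. That rank follows at least in part from the choice of members. Without MPA replicate 1 the difference was -3.05 and without MPA replicate 2 it was -4.07.

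Sstr3 measured 0.15 and -0.17 on the MPA arrays, -1.54 and -1.53 after 6 h of MFP, -2.10 and -1.90 after 12 h, -1.78 and -2.89 after 24 h and -2.96 and -3.34 after 48 h. Its 6 h difference was the deepest of the members, and its 12 h and 24 h arrays overlapped. The difference from MPA was -1.53 ± 0.35 at 6 h and -3.14 ± 0.35 at 48 h, or 8.83-fold lower. At 6 h 48.6% of the 48 h difference was already present, against 22.2% for Agtr1a.

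Of the genes that act inside the cell, Rgs2 was lowest at 24 h. It measured 0.06 and -0.06 on the MPA arrays, -1.12 and -0.75 after 6 h of MFP, -1.51 and -1.68 after 12 h, -3.13 and -3.16 after 24 h and -2.47 and -2.74 after 48 h. No neighbouring groups overlapped, and the 48 h arrays lay above the 24 h arrays. The difference from MPA was -3.14 ± 0.20 at 24 h and -2.60 ± 0.20 at 48 h, and the step from 24 h to 48 h was 0.54 ± 0.20.

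Tesc was lower at each later time, with its largest step last. It measured 0.03 and -0.03 on the MPA arrays, -1.10 and -0.57 after 6 h of MFP, -1.32 and -1.11 after 12 h, -1.63 and -2.24 after 24 h and -2.85 and -3.44 after 48 h. No groups overlapped along this order. The step from MPA to 6 h was -0.83, and those between successive MFP times were -0.38, -0.72 and -1.21 (± 0.30 each), and the 48 h arrays were 8.86-fold below MPA (-3.15 ± 0.30).

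Nrxn3, the adhesion gene, stayed within its MPA range at first and was lower later. It measured 0.62 and -1.12 on the MPA arrays, 0.51 and -0.00 after 6 h of MFP, -0.67 and -0.22 after 12 h, -1.50 and -2.78 after 24 h and -3.92 and -2.71 after 48 h. The 6 h and 12 h arrays lay inside the wide range of the MPA arrays, and the 24 h and 48 h arrays lay below it while overlapping each other. Its difference from MPA was 0.50 after 6 h, -0.20 after 12 h, -1.89 after 24 h and -3.06 after 48 h (each ± 0.60). That last value was -2.19 without MPA replicate 1 and -3.94 without MPA replicate 2. At 12 h 6.4% of the 48 h difference was present, against 38.6% to 63.3% in the other members.

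**Figure D1:**
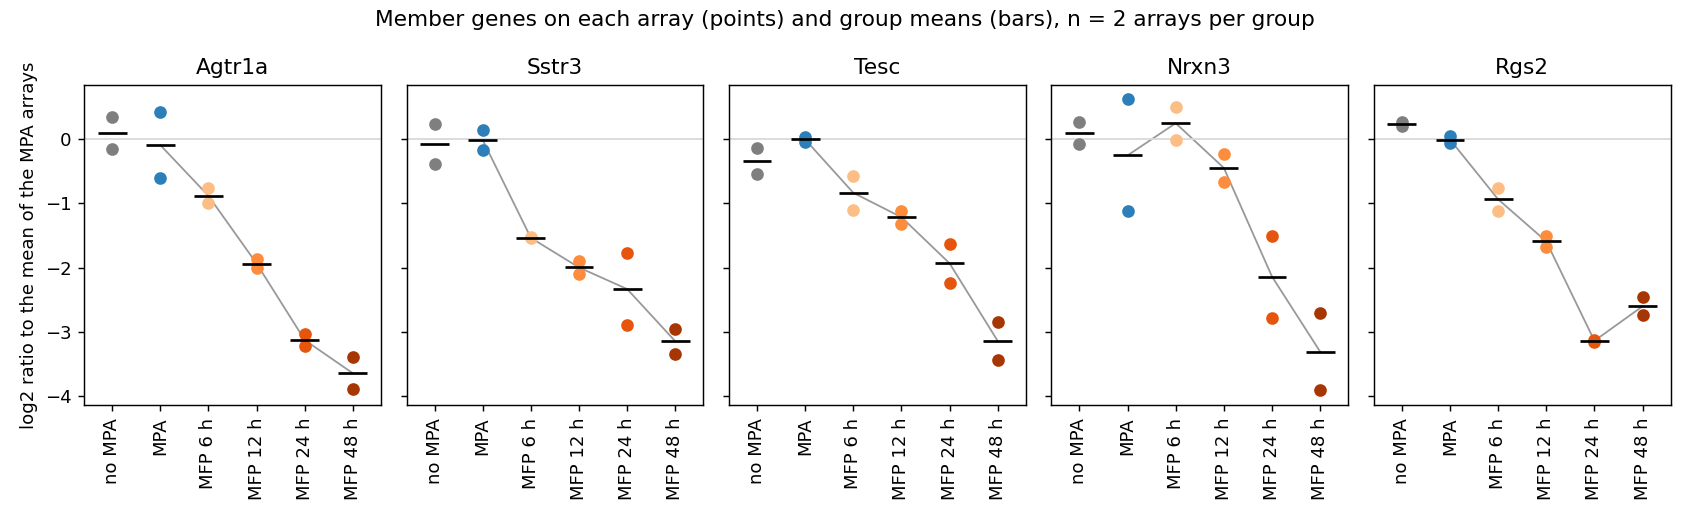
Log2 ratio to the MPA mean (vertical axis) of the probe set that stands for each member, by group, with 1 point per array, bars at the group means and a line through the means from MPA to MFP 48 h. Agtr1a, Sstr3 and Tesc go down at every step, Nrxn3 stays within its MPA range until 12 h, and Rgs2 is lowest at 24 h, at -3.13 and -3.16.

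Read across members, the mean went down at each later MFP time in 4 of 5, the exception being Rgs2, and this held for 8.79% of all genes. In all 5 both 48 h arrays lay below both MPA arrays, as for 27.3% of all genes, and below both 6 h arrays, as for 28.6%. These are the values the members were chosen on, so nothing is read from the counts. From 6 h to 48 h the difference was -3.57 ± 0.60 for Nrxn3, -2.77 ± 0.33 for Agtr1a, -2.31 ± 0.30 for Tesc, -1.67 ± 0.20 for Rgs2 and -1.61 ± 0.35 for Sstr3. In this contrast limma called 11.7% of all genes, 7.07% being higher and 4.58% lower at 48 h. Among all genes the members' falls ranked 6 for Nrxn3, 17 for Agtr1a, 37 for Tesc, 208 for Rgs2 and 243 for Sstr3. Nothing is read from these ranks either, since the members were chosen for their falls. At 6 h 35.9% of the 48 h difference from MPA was present for Rgs2, 26.5% for Tesc and none for Nrxn3, whose 6 h mean lay above its MPA mean.

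The probe sets of a gene did not all move alike. For Nrxn3 all 5 probe sets had both 48 h arrays below both MPA arrays, with differences from -3.06 to -1.70, and none was lower at 6 h than its MPA range. Probe set 1456137_at was higher at 12 h (0.13 and 0.45) than at 6 h (-0.15 and -0.18), so the lower value at the later of those times was not seen with every Nrxn3 probe set. For Rgs2 all 4 probe sets were lower at 48 h than in MPA, with differences of -2.60 to -2.28 for 3 of them and of -1.06 for 1443250_at, and all 4 had their lowest mean at 24 h.

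Sstr3 and Tesc each rested on 1 of 2 probe sets. The Sstr3 probe set 1450577_at, the one designed on a RefSeq mRNA record, read -0.00 and -0.07 at 48 h of MFP against 0.12 and -0.13 in MPA tumours, a difference of -0.03 ± 0.19. The lower one, 1441603_at, was designed on another kind of sequence record, as were the only Agtr1a probe set and those of Rgs2. No Nrxn3 probe set is listed with a RefSeq mRNA record. The Agtr1a fall has no other probe set to set beside it. For Tesc, 1418743_a_at read -0.34 and 0.29 at 48 h against 0.14 and -0.15 in MPA (-0.02 ± 0.26), while 1418744_s_at is the one that was lower. Both Tesc probe sets were designed on RefSeq mRNA records. The suffix _s_at marks probes that can match transcripts of more than 1 gene. Averaged over their probe sets the 48 h differences were -1.59 for Sstr3 and -1.58 for Tesc. Which probe set reports the transcript better was not tested.

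**Figure D2:**
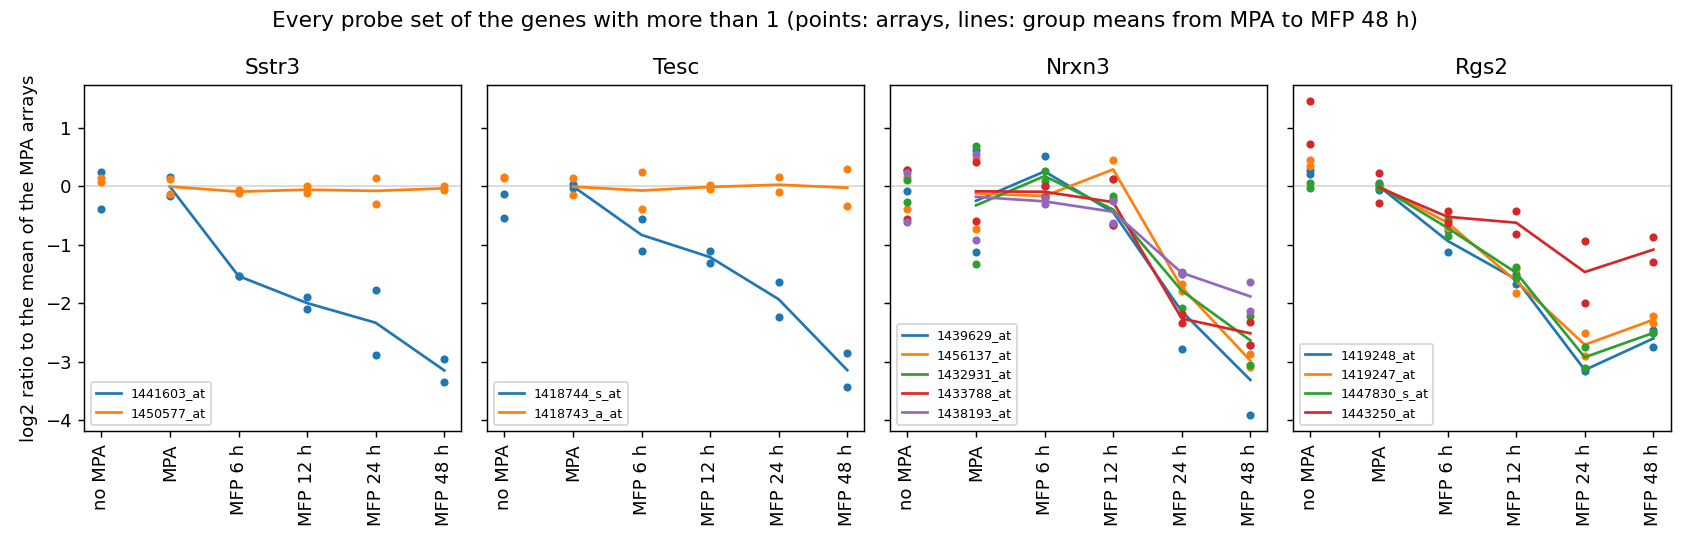
Log2 ratio to the MPA mean (vertical axis) of every probe set of the members with more than 1, by group, with points for arrays and lines through group means from MPA to MFP 48 h. All Nrxn3 and Rgs2 probe sets go down, whereas 1 probe set each of Sstr3 and Tesc stays near 0 (48 h means of -0.04 and -0.03).

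Taking MPA away without mifepristone is the contrast that the choice of members did not use, although it shares the MPA arrays with the MFP contrasts. No member passed limma's test in it. Agtr1a stood at 0.35 and -0.15 in no MPA tumours against 0.42 and -0.60 in MPA tumours (0.19 ± 0.33, limma adjusted p = 0.968). Sstr3 stood at 0.24 and -0.38 in no MPA against 0.15 and -0.17 in MPA (-0.06 ± 0.35, limma adjusted p = 0.993). The groups overlapped for both receptors.

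Tesc stood at -0.13 and -0.54 in no MPA against 0.03 and -0.03 in MPA (-0.33 ± 0.30, limma adjusted p = 0.899), and Rgs2 at 0.28 and 0.21 in no MPA against 0.06 and -0.06 in MPA (0.24 ± 0.20, limma adjusted p = 0.892). The arrays of these genes did not overlap, Tesc being lower and Rgs2 higher without MPA, as happened in either direction for 36% of all genes. Nrxn3 stood at 0.27 and -0.08 in no MPA against 0.62 and -1.12 in MPA (0.34 ± 0.60, limma adjusted p = 0.968). In this contrast limma called 0 of 18193 genes (0%), with 1198 at an unadjusted p under 0.05, none of them a member's chosen probe set. The 95% confidence interval of the difference ran from -0.54 to 0.92 for Agtr1a, from -0.84 to 0.72 for Sstr3 and from -0.99 to 0.33 for Tesc. It was widest for Nrxn3, from -0.99 to 1.68, and narrowest for Rgs2, from -0.21 to 0.70. Rgs2 probe set 1443250_at stood higher, at 0.72 and 1.46 in no MPA against 0.23 and -0.28 in MPA (1.12 ± 0.37, unadjusted p = 0.0120, limma adjusted p = 0.631 over all probe sets). The other 3 Rgs2 probe sets differed by 0.01 to 0.40.

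Set against the tumours without MPA at the same 48 h, mifepristone tumours showed differences of -3.75 ± 0.33 for Agtr1a, -3.41 ± 0.60 for Nrxn3, -3.08 ± 0.35 for Sstr3, -2.85 ± 0.20 for Rgs2 and -2.81 ± 0.30 for Tesc. In all 5 both MFP 48 h arrays lay below both no MPA arrays, as for 29.9% of all genes. Limma called 12.5% of all genes in this contrast, 7.49% being higher and 5.03% lower in MFP 48 h. It uses the 48 h arrays on which the members were chosen, and nothing is read from it.

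**Figure D3:**
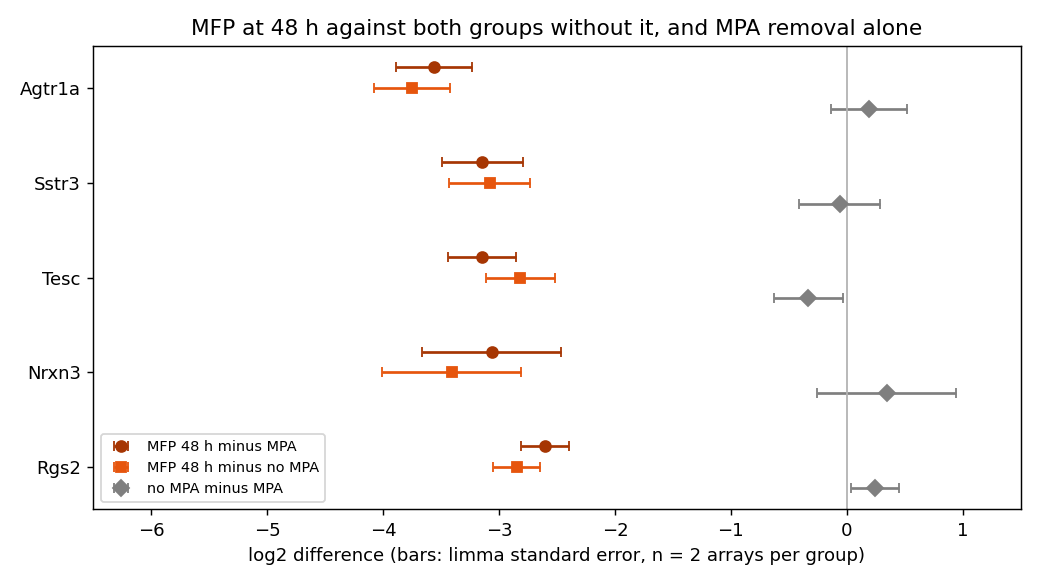
Log2 difference (horizontal axis) of each member for MFP 48 h minus MPA, MFP 48 h minus no MPA, and no MPA minus MPA, with limma standard errors as bars (n = 2 arrays per group). The MFP differences lie between -3.75 and -2.60 and those of MPA removal between -0.33 and 0.34.

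No ligand, sister receptor or effector gene passed the test as lower at 48 h against MPA. At an unadjusted p under 0.05, 21 of them were higher and 6 lower. The share of all genes at that unadjusted level is not given here for the MFP contrasts, so nothing is read from these unadjusted counts. Some of these genes did pass as lower at 48 h against the no MPA tumours, as given under Other observations. Of 88 measured genes in 7 lists of the members' families and pathways, 9 rose and 0 fell in MFP 48 h against MPA (limma), or 10.2%, beside 12.5% of all genes called, 6.47% of all genes being higher and 6.02% lower. The median difference over the 88 was 0.17, against 0.00 over all genes. Without MPA replicate 1 the count was 2, and without either MFP 48 h array it was 4. At 6 h 0 of the 88 passed, when limma called 1.25% of all genes (0.313% higher, 0.94% lower). At an unadjusted p under 0.05 there were 10, with 8 higher and 2 lower. At 12 h 2 rose, when 4.28% of all genes were called (1.66% higher, 2.62% lower). These were Agtrap, for a protein that binds the type 1 angiotensin receptor, and Lrrtm2, for a neurexin-binding protein, and the count was 0 when MPA replicate 1 or MFP 12 h replicate 2 was left out and 1 when the other array of either group was. At 24 h 4 rose and 1 fell, when 8.75% of all genes were called (4.55% higher, 4.2% lower), and leaving out MPA replicate 1 gave 2 and MFP 24 h replicate 2 gave 1. In no MPA against MPA limma called 0 of the 88, with 6 at an unadjusted p under 0.05, beside 1198 of all 18193 genes.

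In the angiotensin system 1 of 12 genes rose at 48 h and none fell, beside 6.47% of all genes higher and 6.02% lower. That gene was Anpep, an aminopeptidase that trims angiotensin peptides, at 0.68 and 1.26 in MFP 48 h tumours against 0.08 and -0.09 in MPA (0.97 ± 0.26, limma adjusted p = 0.0350). Its 48 h arrays lay above both MPA arrays. The precursor gene Agt stood at 0.30 and -0.27 at 48 h against 0.29 and -0.37 in MPA, and the groups overlapped. At 24 h Agt was higher, at 1.23 and 1.82 against 0.29 and -0.37 in MPA (1.56 ± 0.31, limma adjusted p = 0.0146), as was the aminopeptidase gene Enpep (2.45 ± 0.39). Agt is also made by the liver, and on the same 24 h arrays 8 of 10 hepatocyte genes rose, beside 4.55% of all genes. The hepatocyte medians were 3.88 and 4.18 in MFP 24 h against 0.87 and -2.55 in MPA. Their part in the Agt value was not tested. Agtr1b, the sister receptor of near-identical sequence to Agtr1a, read 0.06 and -0.12 at 48 h against 0.04 and -0.04 in MPA (-0.03 ± 0.18), and an array may not keep the signals of such a pair apart. Agtr2, the type 2 receptor, differed from MPA by 0.26 ± 0.22.

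Of the 6 other somatostatin genes limma called 0 at 48 h, when it called 12.5% of all genes. At an unadjusted p under 0.05 there was 1, and their differences from MPA ran from -0.12 to 0.52. The ligand gene Sst differed by 0.26 ± 0.39, and the receptor genes Sstr1 by 0.16 ± 0.22, Sstr2 by 0.21 ± 0.21 and Sstr5 by -0.12 ± 0.17. Of 10 genes for receptor traffic in the primary cilium 0 passed at 48 h (1 at an unadjusted p under 0.05), and at 24 h the adaptor gene Tulp3 fell (-0.99 ± 0.24, limma adjusted p = 0.0334). In the list of calcineurin homologues and proton exchangers, relatives and partners of Tesc, 0 of 10 passed at 48 h, with differences from -0.54 to 0.99. At an unadjusted p under 0.05 there were 4, with 3 higher and 1 lower. Among neurexins and their partners 0 of 11 passed at 48 h (1 at an unadjusted p under 0.05). Nrxn2 differed from MPA by 0.07 ± 0.21, and the neuroligin genes Nlgn1 by 0.04 ± 0.32 and Nlgn2 by 0.37 ± 0.25.

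Among the other RGS genes 4 of 17 rose at 48 h of MFP and none fell, with a median difference of 0.17. In that contrast with MPA limma called 6.47% of all genes higher and 6.02% lower. Rgs19 stood at 1.38 and 1.12 in MFP 48 h tumours against -0.19 and 0.17 in MPA (1.26 ± 0.26, limma adjusted p = 0.0138). Rgs4 stood at 1.94 and 1.20 at 48 h against -0.34 and 0.28 in MPA (1.60 ± 0.36), and Rgs5, a gene known from pericytes, at 1.93 and 1.26 against -0.27 and 0.23 in MPA (1.61 ± 0.43). Rgs16 stood at 1.41 and 1.43 at 48 h against -0.95 and 0.57 in MPA (1.61 ± 0.46, limma adjusted p = 0.0452). For each of these genes the 48 h arrays lay above both MPA arrays. The 4 became 0 when replicate 1 of MPA or of MFP 48 h was left out, and 2 without MFP 48 h replicate 2 or either MFP 12 h array.

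Among 22 G proteins and receptor effectors 4 rose at 48 h and none fell, beside 6.47% of all genes higher and 6.02% lower. The inhibitory G protein gene Gnai2 stood at 1.36 and 1.40 at 48 h against -0.39 and 0.31 in MPA (1.42 ± 0.24, limma adjusted p = 0.00656). The receptor kinase gene Grk5 (1.27 ± 0.26), the phospholipase gene Plcb1 (1.46 ± 0.31) and the protein kinase C gene Prkcd (0.98 ± 0.25, limma adjusted p = 0.0335) rose too. Gnaq, for the Gq subunit that the angiotensin receptor acts through, differed by -0.31 ± 0.28, and Gnai1 by 0.80 ± 0.53. The 4 became 2 without MPA replicate 1 or MFP 48 h replicate 2. On the same 48 h arrays the macrophage marker median was 1.87 and 1.98 against -0.90 and 0.55 in MPA, and that of smooth muscle and pericyte markers 1.47 and 0.79 against -0.17 and 0.15 in MPA. Their part in the RGS and G protein values was not tested.

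**Figure D4:**
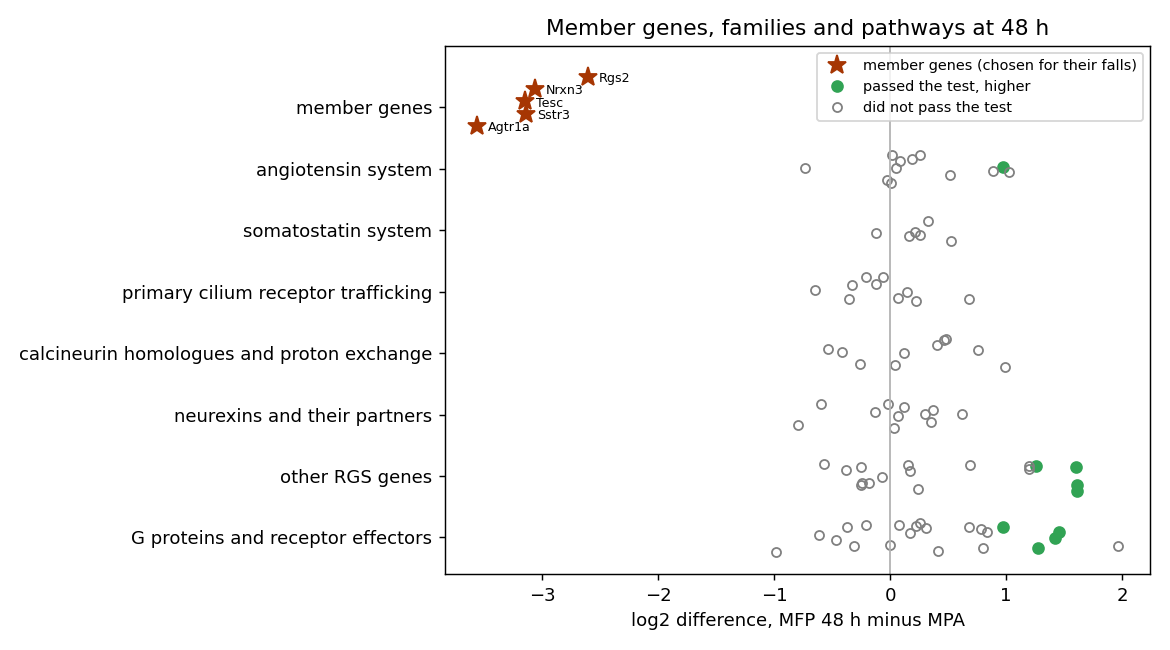
Log2 difference between MFP 48 h and MPA (horizontal axis) for the members and for 88 genes of 7 lists, with filled points for genes that passed limma's test. All list genes that passed are to the right of 0, and the members, chosen for their falls, lie between -3.56 and -2.60.

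Markers of other cell types and of mitosis moved over the same arrays. Over all genes limma called 6.47% higher and 6.02% lower at 48 h, and 4.55% higher and 4.2% lower at 24 h. Of 11 macrophage markers 10 rose at 48 h and none fell, and of 10 smooth muscle and pericyte markers 4 rose. Of 10 fibroblast markers 8 rose, with medians of 1.54 and 1.81 at 48 h against -0.93 and 0.56 in MPA. Of 11 mitosis genes 6 fell at 48 h, with medians of -1.33 and -1.74 against -0.08 and 0.08 in MPA. All 11 fell at 24 h, the time at which Rgs2 was lowest, with medians of -2.87 and -1.53. Of 8 exocrine pancreas genes 6 rose at 48 h, with medians of 5.10 and 5.66 against 0.68 and -1.44 in MPA. Their medians were already 6.18 and 4.89 after 6 h of MFP, then 0.28 and 1.31 after 12 h and 1.23 and 6.88 after 24 h, so they did not follow the order of the times. Of 11 skeletal muscle genes 0 passed, although their median was 4.24 on 1 of the 48 h arrays and 0.21 on the other.

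Of 13 luminal epithelial markers, the check on the labelled carcinoma, 4 fell and 1 rose at 48 h. Of all genes 6.02% fell and 6.47% rose. The luminal medians were -0.91 and -0.20 at 48 h against 0.02 and -0.02 in MPA. The 4 that fell were the transcription factor genes Gata3 (-2.18 ± 0.46) and Foxa1 (-1.80 ± 0.34), the oestrogen receptor gene Esr1 (-1.72 ± 0.24) and the adhesion gene Epcam (-0.81 ± 0.21), and the claudin gene Cldn4 rose (1.19 ± 0.23). In ratios to MPA no marker can be shown to be present or absent, so the tissue label could not be checked by level. Neuronal and neuroendocrine markers, of cells in which Nrxn3 and Sstr3 are best known, had 0 of 10 past the test at 48 h (medians 0.23 and -0.04 at 48 h against -0.11 and 0.10 in MPA). Snap25 was the lowest of them, at -3.82 and -2.69 at 48 h against -0.62 and 0.43 in MPA (-3.16 ± 1.14, limma adjusted p = 0.102). Its 48 h arrays lay below both MPA arrays, and the other markers differed from MPA by -0.13 to 0.69. The 3 prime minus 5 prime difference of the Actb control, which grows as RNA breaks, averaged -0.01 ± 0.09 in MPA and, under MFP, 0.16 ± 0.05 after 6 h, 0.35 ± 0.02 after 12 h, 0.43 ± 0.11 after 24 h and 0.53 ± 0.09 after 48 h (SD, n = 2). It was 0.02 ± 0.16 in no MPA. That of the Gapdh control averaged 0.02 ± 0.20 in MPA and -0.01 ± 0.06 in no MPA. Under MFP the Gapdh difference was 0.02 ± 0.11 after 6 h and 0.28 ± 0.004 after 12 h. It was 0.49 ± 0.09 after 24 h and 0.42 ± 0.08 after 48 h, so its mean was not above MPA at 6 h and was highest at 24 h. The part of these changes in the members' falls was not tested.

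**Figure D5:**
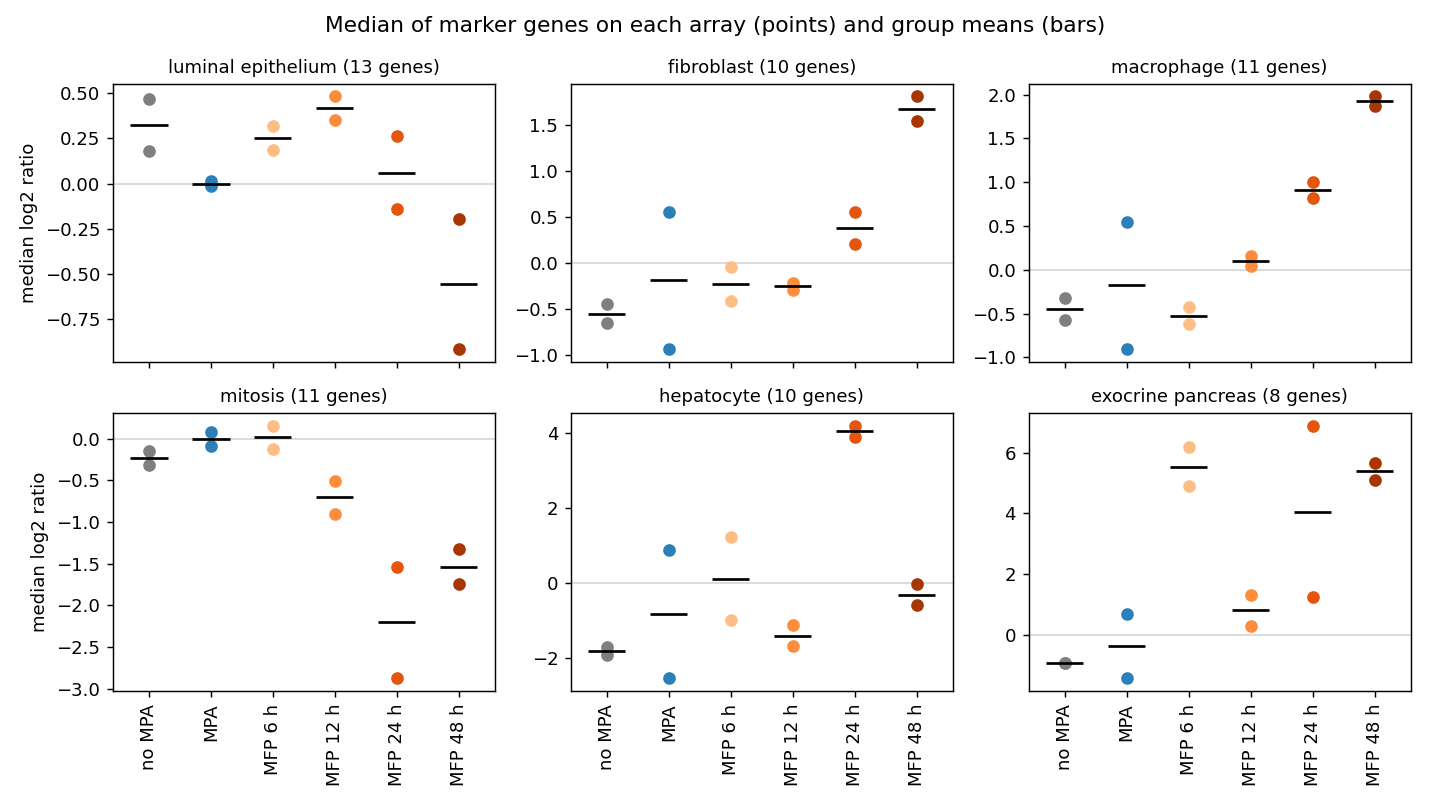
Median log2 ratio of 6 marker lists (vertical axes, scaled per panel) on each array, by group, with bars at the means of the arrays. Macrophage and fibroblast medians are highest at 48 h of MFP, the mean of the mitosis medians is lowest at 24 h (arrays at -2.87 and -1.53, overlapping those at 48 h, -1.33 and -1.74), and luminal medians at 48 h are -0.91 and -0.20.

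Over the 12 arrays the members correlated with each other at r = 0.75 to 0.95 in 10 pairs, the lowest being Nrxn3 with Rgs2 and the highest Agtr1a with Rgs2. These are descriptions over arrays that share the time course on which the members were picked. Outside the members, the most similar genes to Agtr1a over the 12 arrays were Elac1 (r = 0.98), Cenpq (0.98) and Dhx9 (0.97), with smaller 48 h means of -0.89, -1.12 and -1.23. Those of Sstr3 were Zbtb16 (0.98), Abcf1 (0.97) and Exo1 (0.97). Zbtb16, a zinc finger transcription factor gene that steroid hormones regulate, averaged -1.78 at 6 h and -3.78 at 48 h, beside -1.54 and -3.15 for Sstr3.

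For Tesc the most similar genes were Prpf39 (0.98), Tpi1 (0.97) and B4galnt1 (0.97), whose 48 h means were -1.51, -1.28 and -1.87. For Nrxn3 they were Ttc6 (0.98), Grhl1 (0.97) and Foxa1 (0.97). Grhl1 and Foxa1 encode epithelial transcription factors, and both had the late course of Nrxn3, averaging 0.39 and -0.05 after 6 h, -0.08 and -0.16 after 12 h, and -2.16 and -1.83 after 48 h. For Rgs2 they were Usp45 (0.98), Shmt2 (0.97) and Nudt1 (0.97), and each of these also had a lower mean at 24 h than at 48 h. The gene closest to the scaled mean of all 5 members was Wfdc12 (0.98, 48 h mean -2.89), followed by Elac1, Rbms3, Kitl and Cenpq (0.97 each). Kitl, the ligand of the Kit receptor, averaged -0.83 after 6 h of MFP, -1.12 after 12 h, -2.01 after 24 h and -2.54 after 48 h.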

How the data were processed

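Each array was hybridised with 200 ng of RNA from formalin-fixed tumours, per the labels' protocols. GCRMA (version not given in the sources used here) made the probe set values, per the submitters' processing notes. The authors deposited log2 values for 45101 probe sets. For 45099 of them the linear MPA values average 1 within 0.0001, so the deposited log2 values are ratios to the MPA mean, and signal over background is unknown. Column medians lie between -0.11 and 0.01, and differences within a pair of arrays of 1 group have an SD of 0.39 to 0.56, so no arrays were identical.

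Of the probe sets 34945 have 1 symbol in the platform annotation (34741 also matched RefSeq by gene ID), 932 have several, 9160 others none here, and 64 are controls. Each gene was represented by its most variable probe set (SD across the 12 arrays, groups ignored), a rule that favours probe sets with larger changes. limma 3.58.1 in R 4.3.3 fitted 1 mean per group over 12 arrays (6 residual and 4.21 prior degrees of freedom), with Benjamini-Hochberg adjustment over all genes at 0.05. Figures used matplotlib 3.10.9. The fit was tested on simulated data.

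The members and lists were chosen with earlier results of these data known. Of 97 list entries for families and pathways 88 were measured, and the others were not analysed here. Named genes are the members, the 3 genes most correlated with each and the 5 with their mean, up to 3 called genes per list and direction at 48 h, and a fixed set of ligands, receptors and G proteins. Agtrap, Lrrtm2, Tulp3, Enpep, Snap25 and the 5 called luminal markers were named after their values were seen. Alternatives were the mean over probe sets, centred arrays, array weights, a filter on SD, the compared groups alone and each array left out.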

Additional observations from a re-analysis of the deposited data

Results flagged for a closer look

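No group has more than 2 arrays, so no array was tested as an outlier. Among the 88 family and pathway genes the effect of MFP against MPA differed between 48 h and 6 h for 10 by limma's test of that difference. Of all genes 11.7% passed it, 7.07% being higher and 4.58% lower at 48 h, so 10 of 88 is near the share of all genes. Of the 10, 8 were higher at 48 h and 2 lower. Rgs19 had the largest difference (1.80 ± 0.26, adjusted p = 0.00354), with 1.26 at 48 h and -0.54 at 6 h. The others that were higher at 48 h were Rgs16 (1.77), Rgs18 (1.5), Gnai2 (1.34, adjusted p = 0.00715), Plcb1 (1.20), Anpep (1.18), Arrb2 (1.18) and Grk5 (1.12). The stimulatory G protein gene Gnas (-0.91 ± 0.23) was lower, with -0.62 at 48 h and 0.29 at 6 h, and so was Rgs20 (-1.04 ± 0.29), with -0.18 at 48 h and 0.86 at 6 h. The macrophage marker medians of 1.87 and 1.98 at 48 h and -0.62 and -0.43 at 6 h moved over the same arrays, and their part was not tested.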

How the results depend on the processing

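No paired analysis was possible because the labels give no replicate numbers. Centring arrays on their medians and leaving out genes with a low SD kept every member difference within 1 SD. Averaging all probe sets gave, for MFP 48 h against MPA, no MPA and MFP 6 h in that order, -1.59, -1.61 and -0.78 for Sstr3, -1.58, -1.50 and -1.13 for Tesc, and -2.11, -2.56 and -1.42 for Rgs2. It gave Nrxn3 -2.58 against no MPA and -2.65 against 6 h, turned the Sstr3 difference of no MPA minus MPA to 0.027, and moved the family and pathway counts to 1 at 6 h, 4 at 12 h and 11 for MFP 48 h against no MPA. Sstr3 and Tesc moved because 1 of their 2 probe sets is flat. The G protein count at 48 h became 1. With array weights 980 of all genes passed at 24 h, and 3 and 5 family and pathway genes at 24 h and 48 h, 2 of them RGS genes at 48 h. With the compared groups alone 0, 0, 117 and 43 genes passed at the successive MFP times, and 0, 1 and 0 family and pathway genes after 12 h, 24 h and 48 h, with fewer arrays to estimate the spread.

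With 1 array left out at a time, the genes called were 1 to 270 after 6 h of MFP, 56 to 766 after 12 h, 687 to 1610 after 24 h, 564 to 2343 after 48 h, 746 to 2369 for MFP 48 h against no MPA and 0 to 4 for no MPA against MPA. The family and pathway counts were 0 to 3 after 12 h, 1 to 6 after 24 h, 2 to 10 after 48 h and 5 to 18 against no MPA. At 48 h against MPA Agtr1a ranged from -4.07 to -3.05 and Nrxn3 from -3.94 to -2.19, and Rgs2 against 6 h from -1.85 to -1.49. For no MPA minus MPA Agtr1a ranged from -0.32 to 0.70, Sstr3 from -0.37 to 0.25 and Nrxn3 from -0.53 to 1.22, so their signs rest on single arrays. Signal over background is unknown, and the cause of the other shifts was not tested.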

Other observations

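At 48 h of MFP against the no MPA tumours, 13 of the 88 family and pathway genes rose and 4 fell (limma), or 19.3%, beside 12.5% of all genes called, 7.49% of all genes being higher and 5.03% lower. The 4 that fell were Ppp3ca, a calcineurin catalytic subunit gene (-1.04 ± 0.19, adjusted p = 0.00731), Gnas (-0.93 ± 0.23), the latrophilin gene Adgrl1 (-0.97 ± 0.28) and the peptidase gene Thop1 (-0.97 ± 0.23), all named after their values were seen. Ppp3ca averaged -0.55 at 48 h of MFP and 0.49 in no MPA. Rgs16 had the largest rise in this contrast (2.39 ± 0.46), averaging 1.42 at 48 h of MFP and -0.97 in no MPA. The count of 17 fell to 5 or 6 when no MPA replicate 1 or 2 was left out, and to 7 or 10 when MFP 48 h replicate 1 or 2 was.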
